A study of Mus musculus with 12 samples.

Results

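A set of 10 genes of the extracellular matrix was followed across Shh-type mouse medulloblastomas (MBs) and normal granule neuron progenitors (GNPs): the small leucine-rich proteoglycan (SLRP) genes Dcn, Bgn, Lum, Ogn and Fmod, and the fibroblast matrix genes Islr, Fn1, Thbs1, Thbs2 and Postn. They were chosen by name and family and make up 10 of the 19057 genes that the arrays measured with a probe of 1 symbol. Together they had 23 probes, and each gene was read from the brightest of its probes on average, with the remaining probes described beside it.

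RNA was profiled in 4 NdpKO;Ptch+/- MBs, 4 Ptch+/- MBs and 4 samples of WT GNPs, on 1 Illumina MouseWG-6 v2.0 array each. The NdpKO;Ptch+/- MBs arose in male mice that carried a lacZ-disrupted Ndp allele, the X-linked gene of the secreted ligand Norrin, besides a heterozygous loss of Ptch, which encodes the receptor that restrains Hedgehog signalling. Their strain background was mixed, whereas Ptch+/- MBs and WT GNPs were labelled C57Bl/6. By the series' design text mutants were matched to controls bred in one cohort, which these strain labels do not show, so genotype and strain cannot be told apart here. The study's other controls included both sexes, so sex may also differ with genotype. It further reports a shorter mean tumor latency in NdpKO;Ptch+/- mice, so age at dissection may differ between the tumor genotypes. Tumors were dissected from symptomatic mice of unstated age, and WT GNPs were purified from postnatal day 6 cerebella on a Percoll gradient with pre-plating, so tumor tissue cannot be told apart from the lack of purification in the comparisons with WT GNPs. The allele that the NdpKO;Ptch+/- MBs carry is present in every cell and not limited to a cell type, and the comparison of the tumor genotypes asks which transcripts depend on Norrin in MB. The study describes its GNP samples as separate animals, but no source used here says so of the tumors, so the p-values may measure only the spread between these samples.

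SLRPs are secreted proteins with a core of leucine-rich repeats and, in decorin and biglycan, side chains of chondroitin or dermatan sulfate. Decorin, lumican and fibromodulin bind fibrillar collagen and control how its fibrils assemble, and decorin and biglycan also bind TGF-beta and signal through cell surface receptors, Toll-like receptors among them for biglycan. In the brain, fibroblasts of the meninges and of the vessel wall are a main source of these proteins, while fibronectin and the thrombospondins are also made by endothelial cells, glia and tumor cells.

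Values are normalized log2 signals, in which 1 unit is a doubling. Signals ran from 4.09 to 16.0, every array had a median of 4.15, and between 31.8% and 32.5% of the probes on an array lay at 4.5 or more; values under 4.5 were read as not well above background. Correlations between arrays of the same group ran from 0.989 to 0.993 in NdpKO;Ptch+/- MBs, from 0.984 to 0.991 in Ptch+/- MBs and from 0.993 to 0.996 in WT GNPs. The Ndp probe stayed under 4.5 on all 12 arrays and so gave no check of the genotype. Of 9 granule lineage markers measured, 6 reached 4.5. The others, Atoh1, Gli1 and Mycn, lay between 4.11 and 4.14 on all 12 arrays. The study reports similar in situ hybridization patterns for these genes in both tumor genotypes. A probe under the limit thus does not show that a transcript was absent. The summed linear signal of the 9 markers was 26335 to 30976 in NdpKO;Ptch+/- MBs, 30813 to 36338 in Ptch+/- MBs and 24020 to 28873 in WT GNPs. Zic1 and Sfrp1 were the brightest of the 9, with group means from 12.08 to 14.12. The number of arrays, 4 in each group, limits the precision.

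RefSeq (GRCm38.p6) gave a promoter window, 250 bases before to 50 after the start site, for 6 of the 10 genes. Of these, 3 are shown, since Thbs2 and Islr had the widest spread among Ptch+/- MBs of the genes with a window and Bgn was the member with a window that was well above background on every array. Capitals mark matches to 4 motifs searched on both strands, the TATA box TATAAA, the GC box GGGCGG, the AP-1 site TGANTCA and the E-box CACGTG.
Thbs2, chr17:14694213-14694512, minus strand: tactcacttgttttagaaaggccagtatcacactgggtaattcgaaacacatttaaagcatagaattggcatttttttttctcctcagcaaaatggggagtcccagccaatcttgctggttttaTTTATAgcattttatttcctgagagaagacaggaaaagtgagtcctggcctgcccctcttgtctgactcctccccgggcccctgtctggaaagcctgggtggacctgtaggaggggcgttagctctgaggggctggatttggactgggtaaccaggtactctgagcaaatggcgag
Islr, chr9:58158505-58158804, minus strand: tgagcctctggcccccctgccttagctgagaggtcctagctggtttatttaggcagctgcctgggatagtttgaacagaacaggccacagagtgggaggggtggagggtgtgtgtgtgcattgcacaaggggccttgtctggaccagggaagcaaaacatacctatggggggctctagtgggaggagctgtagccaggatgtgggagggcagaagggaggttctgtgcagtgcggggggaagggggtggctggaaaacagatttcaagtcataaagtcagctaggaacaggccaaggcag
Bgn, chrX:73483351-73483650, plus strand: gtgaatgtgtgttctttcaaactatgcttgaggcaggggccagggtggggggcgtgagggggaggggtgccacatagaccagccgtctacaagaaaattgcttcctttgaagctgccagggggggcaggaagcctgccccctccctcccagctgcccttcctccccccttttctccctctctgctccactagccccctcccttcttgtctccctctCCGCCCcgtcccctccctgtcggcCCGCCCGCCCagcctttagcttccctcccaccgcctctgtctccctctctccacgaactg
Bgn held 3 GC box matches, all on the opposite strand, at positions -34, -10 and -6 from the start site, of which the last 2 overlap. Thbs2 held a TATA box match on the opposite strand at position -126, and the Islr window held none of the 4. Among 32851 windows of 300 bases, 35.7% held the GC box letters, 13.6% the TATA box letters, 7.81% the AP-1 letters and 7.15% the E-box letters. A match describes the letters only.

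Dcn, which encodes decorin, was the SLRP gene whose tumor genotypes did not overlap. Its signal was 9.51, 8.48, 9.06 and 9.99 in NdpKO;Ptch+/- MBs, against 11.88, 10.66, 10.35 and 11.10 in Ptch+/- MBs and 11.01, 10.66, 10.73 and 10.57 in WT GNPs. All 4 NdpKO;Ptch+/- MBs lay below all 4 samples of both other groups, and Ptch+/- MBs spanned the range of the WT GNPs. NdpKO;Ptch+/- MBs averaged 9.26 ± 0.64, against 11.00 ± 0.66 in Ptch+/- MBs (SD, n = 4 each), a log2 difference of -1.74 (SE 0.37, 95% confidence interval -2.58 to -0.90), or 3.34-fold. This difference did not pass limma's test after Benjamini-Hochberg adjustment over all 45281 probes (unadjusted p = 0.000996, adjusted p = 0.0610). Without Ptch+/- MB replicates 1 and 4, the 2 with the most choroid plexus transcripts, it was -1.25 with an adjusted p of 0.192. Those 2 also had the highest Dcn of their genotype and were picked after the data were seen. Leaving them out could only shrink the difference, and the part of choroid plexus in it was not tested. In bulk RNA, fewer cells of a type and less RNA per cell cannot be told apart.

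Relative to WT GNPs, Dcn fell by 1.48 on the log2 scale in NdpKO;Ptch+/- MBs (SE 0.37, 2.80-fold, adjusted p = 0.0287), with WT GNPs at 10.74 ± 0.19 (SD, n = 4). The call held without NdpKO;Ptch+/- MB replicate 4 (adjusted p = 0.0172) and was lost when any 1 of the other 7 arrays of these groups was left out (adjusted p = 0.0535 to 0.0781). In Ptch+/- MBs the difference from WT GNPs was 0.26 (95% confidence interval -0.58 to 1.09, adjusted p = 0.718).

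A second Dcn probe also had NdpKO;Ptch+/- MBs lowest on average. It read 6.43, 4.60, 5.47 and 7.02 in NdpKO;Ptch+/- MBs, against 9.07, 7.35, 6.71 and 8.62 in Ptch+/- MBs and 8.98, 8.69, 8.46 and 8.41 in WT GNPs. NdpKO;Ptch+/- MB replicate 4 overlapped the lowest Ptch+/- MB, and the difference between tumor genotypes was -2.06 (adjusted p = 0.168). Relative to WT GNPs this probe fell by 2.75 in NdpKO;Ptch+/- MBs (SE 0.61, adjusted p = 0.0163), while in Ptch+/- MBs the difference was -0.70 (adjusted p = 0.517). The remaining 2 Dcn probes were under 4.5 on every array.

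**Figure D1:**
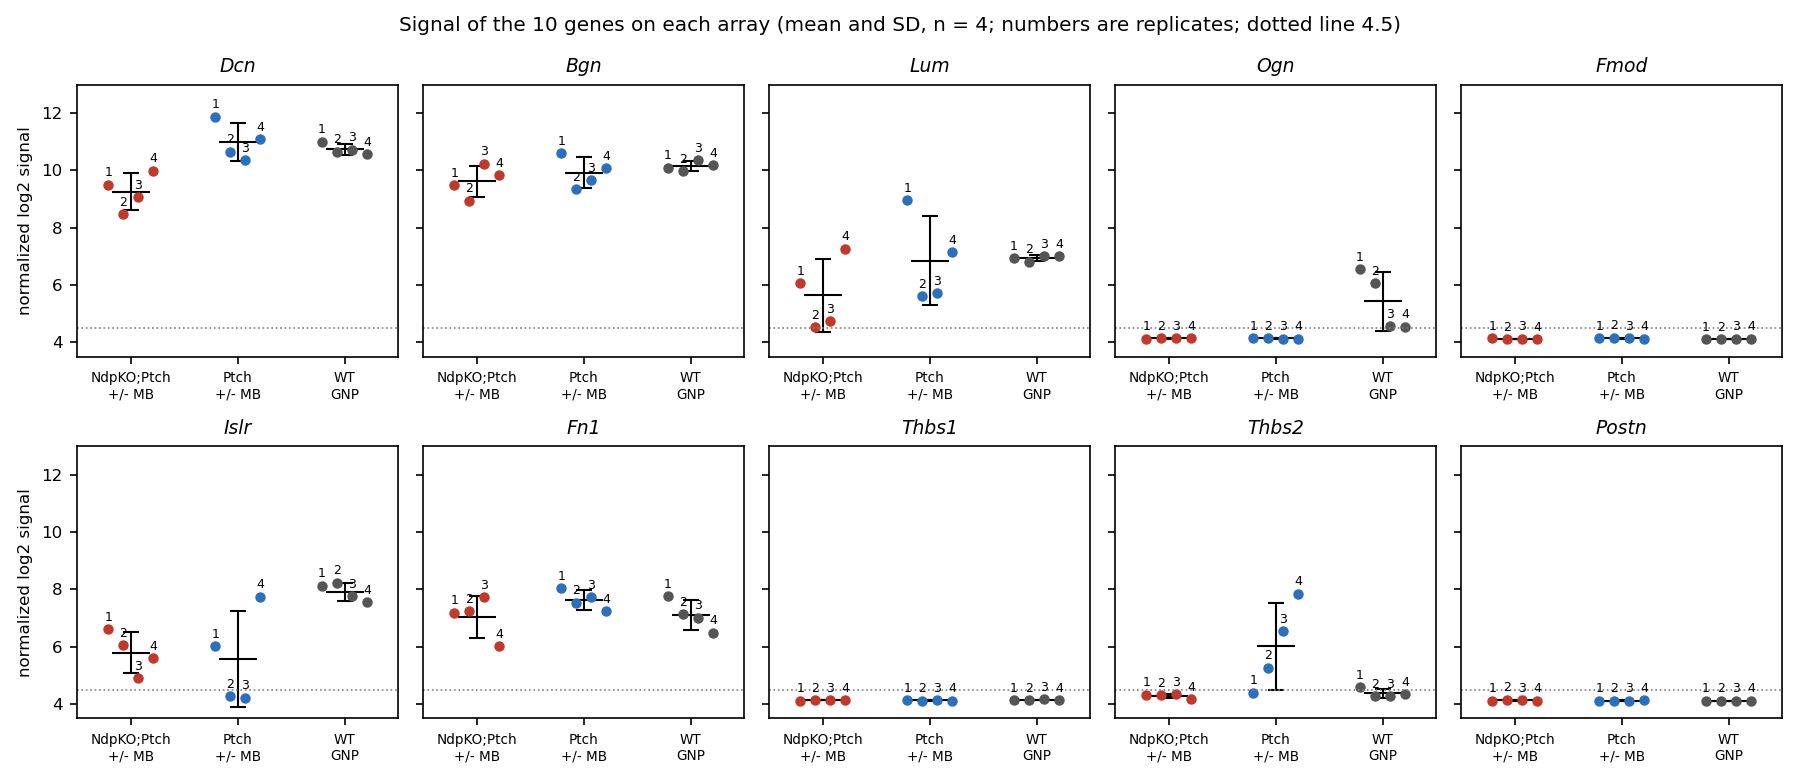
Normalized log2 signal (y axis) of each of the 10 genes on each of the 12 arrays, as numbered points for the replicates of NdpKO;Ptch+/- MB, Ptch+/- MB and WT GNP, with the group mean and SD as bars and the limit of 4.5 as a dotted line. The 4 NdpKO;Ptch+/- MBs have the lowest Dcn signals, from 8.48 to 9.99, Thbs2 is above 4.5 in 3 Ptch+/- MBs, and Fmod, Thbs1 and Postn lie under 4.5 on every array.

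Lum encodes lumican, a keratan sulfate SLRP that spaces collagen fibrils. Its signal was 6.06, 4.53, 4.74 and 7.27 in NdpKO;Ptch+/- MBs, against 8.96, 5.62, 5.71 and 7.15 in Ptch+/- MBs and 6.94, 6.82, 7.02 and 7.02 in WT GNPs. The tumors of both genotypes scattered on both sides of the WT GNPs, which lay within 0.20 of each other. NdpKO;Ptch+/- MBs averaged 5.65 ± 1.27, Ptch+/- MBs 6.86 ± 1.57 and WT GNPs 6.95 ± 0.10 (SD, n = 4 each), and the tumor genotypes differed by -1.21 (SE 0.80, 95% confidence interval -3.00 to 0.58, adjusted p = 0.603). The difference from WT GNPs was -1.30 in NdpKO;Ptch+/- MBs (95% confidence interval -3.09 to 0.49, adjusted p = 0.366) and -0.09 in Ptch+/- MBs (95% confidence interval -1.88 to 1.70, adjusted p = 0.962). A weaker second Lum probe stood at 7.54 in Ptch+/- MB replicate 1 and between 4.15 and 5.28 on the other 11 arrays. Without Ptch+/- MB replicates 1 and 4 the difference between tumor genotypes on the main Lum probe was -0.01. These were the tumors of their genotype with the highest Lum, so leaving them out could only lower the Ptch+/- MB mean.

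Bgn encodes biglycan, a ligand of Toll-like receptors when it is released from the matrix. Its only probe read 9.48, 8.95, 10.24 and 9.83 in NdpKO;Ptch+/- MBs, against 10.60, 9.36, 9.66 and 10.08 in Ptch+/- MBs and 10.10, 9.98, 10.37 and 10.18 in WT GNPs. The groups overlapped throughout, with means of 9.62 ± 0.55 in NdpKO;Ptch+/- MBs, 9.93 ± 0.54 in Ptch+/- MBs and 10.16 ± 0.16 in WT GNPs (SD, n = 4 each). The tumor genotypes differed by -0.30 (95% confidence interval -1.00 to 0.39, adjusted p = 0.779), so the interval leaves room for at most a doubling in favour of Ptch+/- MBs. The difference from WT GNPs was -0.53 in NdpKO;Ptch+/- MBs (95% confidence interval -1.23 to 0.16, adjusted p = 0.337) and -0.23 in Ptch+/- MBs (95% confidence interval -0.92 to 0.47, adjusted p = 0.694). Bgn is X-linked, and the Y-linked gene Eif2s3y read 4.21 in Ptch+/- MB replicate 1, which had the highest Bgn signal, and 9.82 to 10.52 on the other 11 arrays. Of the other sex markers, Kdm5d, also Y-linked, read 6.17 to 7.16 in Ptch+/- MBs, and Xist and Uty were under 4.5 on every array. The sex of that tumor is thus not settled, and the part of sex in these values was not tested.

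Ogn, which encodes osteoglycin, was not well above background in any tumor. Its main probe read 4.13 to 4.16 in the 8 tumors, against 6.56, 6.06, 4.58 and 4.55 in WT GNPs. With this probe the WT GNPs alone carried a signal and differed among themselves. Each tumor genotype averaged 4.14, at least 1.91-fold below the WT GNP mean of 5.44 ± 1.03 (SD, n = 4), and neither difference passed (adjusted p = 0.0702 in NdpKO;Ptch+/- MBs and 0.0557 in Ptch+/- MBs). Without WT GNP replicate 3 or replicate 4, which were the lowest, both passed, with adjusted p of 0.0344 and 0.0310 for NdpKO;Ptch+/- MBs and 0.0270 and 0.0248 for Ptch+/- MBs. Leaving out either could only raise the WT GNP mean. Without any other single array neither passed (adjusted p = 0.116 to 0.170 for NdpKO;Ptch+/- MBs and 0.0965 to 0.139 for Ptch+/- MBs). The remaining Ogn probes were under 4.5 on every array, WT GNPs included, so the Ogn difference rests on the main probe. Fmod, which encodes fibromodulin, was under 4.5 with both of its probes on all 12 arrays.

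Counted together, 7 of the 10 genes reached 4.5 on any array. The counts that follow are over all 10, whereas only these 7 belong to the genes that reached 4.5, whose shares are given beside them. Between the tumor genotypes 0 of 10 passed by limma, against 2.07% of all genes and 3.96% of the 9648 genes that reached 4.5. At an unadjusted p under 0.05, Dcn and Thbs2 were lower in NdpKO;Ptch+/- MBs (2 of 10, against 7.91% of all genes and 12.7% of those that reached 4.5), and these 2 were also the genes whose groups did not overlap (4.72% of all genes and 7.59% of those that reached 4.5 were lower without overlap). For Thbs2 the nearest values of the tumor genotypes, 4.39 and 4.34, were both under 4.5. Over all 10, the genes under 4.5 included, the median log2 difference was -0.16, beside 0 over all genes. The genes were chosen as a family, and the counts and the median are descriptive.

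Against WT GNPs, 1 of 10 passed in NdpKO;Ptch+/- MBs, Dcn. Of all genes 15.7% passed there, 7.98% with a lower signal in NdpKO;Ptch+/- MBs, and of those that reached 4.5, 27.5% passed and 13.1% were lower. Dcn, Ogn and Islr were lower than in WT GNPs without overlap (3 of 10, against 12.3% of all genes and 19% of those that reached 4.5) and at an unadjusted p under 0.05 (against 15% and 22.2%). The median over all 10 was -0.31, beside 0 over all genes. In Ptch+/- MBs 0 of 10 passed by limma, against 21.2% of all genes and 36.6% of those that reached 4.5. At an unadjusted p under 0.05, Ogn, Islr and, under the limit of 4.5 in both groups, Thbs1 were lower (3 of 10, against 17.7% of all genes and 26.8% of those that reached 4.5), and Thbs2 was higher (16.6% and 27.2%). Ogn and Thbs1 were lower without overlap, 2 of 10, against 14.6% of all genes and 22.9% of those that reached 4.5, and Thbs1 averaged 4.13 in Ptch+/- MBs and 4.14 in WT GNPs. The median over all 10 was -0.01, beside 0 over all genes. Both comparisons share the WT GNP samples, and the tumor comparison shares its samples with each of them.

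**Figure D2:**
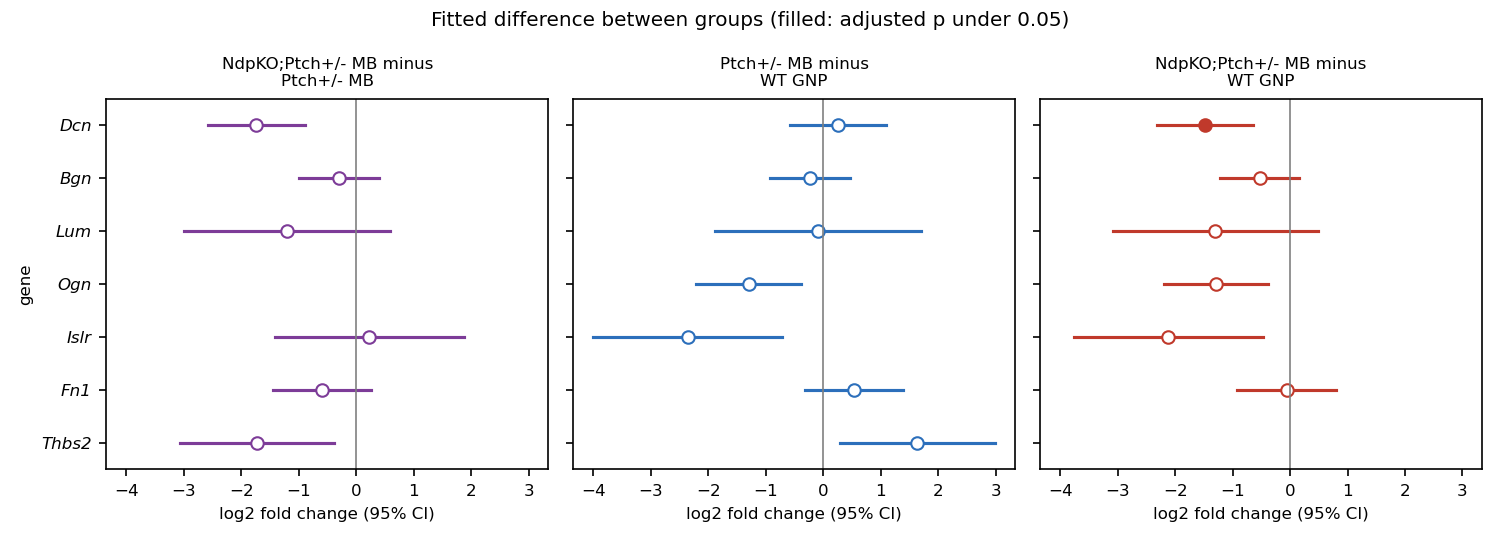
Fitted log2 fold change (x axis) with its 95% confidence interval for each of the 7 genes that reached 4.5 (rows), in 3 panels for NdpKO;Ptch+/- MB minus Ptch+/- MB, Ptch+/- MB minus WT GNP and NdpKO;Ptch+/- MB minus WT GNP, with filled points for an adjusted p under 0.05 and no point where both group means are under 4.5. Dcn in NdpKO;Ptch+/- MB minus WT GNP, at -1.48, is the only filled point, and the intervals of Bgn and Fn1 include 0 in every panel. Fitted values of Ogn, and of Thbs2 between the tumor genotypes, rest on a group under 4.5.

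Within a genotype, Dcn and Lum ranked the tumors in nearly the same order, and Bgn and Prelp did so in part. Over the 8 tumors, deviations from the genotype mean had a Pearson r of 0.961 for Dcn and Lum. It was 0.701 for Dcn and Bgn and 0.634 for Bgn and Lum. Among NdpKO;Ptch+/- MBs, replicate 4 was the highest and replicate 2 the lowest for Dcn, for Lum and for Prelp, a further SLRP gene whose product links basement membranes to the matrix. Among Ptch+/- MBs, replicate 1 was the highest and replicate 4 the next for Dcn, Lum, Bgn and Prelp, while the lowest was replicate 3 for Dcn and replicate 2 for the others. Measured from the mean of its genotype, Lum stood at 2.10 in Ptch+/- MB replicate 1 and at 1.62 in NdpKO;Ptch+/- MB replicate 4, and Dcn at 0.88 and 0.73 in the same tumors. Bgn and Prelp departed from this order in NdpKO;Ptch+/- MB replicate 3, where they stood at 0.61 and 0.43 with Dcn at -0.20 and Lum at -0.91. Dcn and Lum are neighbours on chromosome 10, with 0 protein-coding genes between them in RefSeq, and the next SLRP genes there, Kera and Epyc, were under 4.5 on every array.

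**Figure D3:**
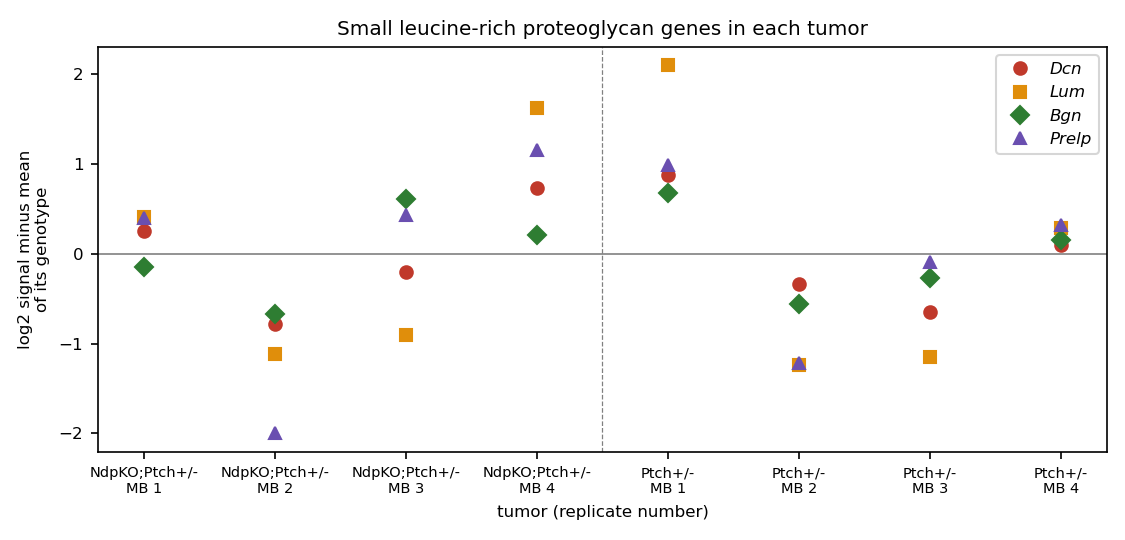
Log2 signal minus the mean of the tumor's genotype (y axis) for Dcn, Lum, Bgn and Prelp in each of the 8 tumors (x axis), with NdpKO;Ptch+/- MBs left of the dashed line. Lum has the widest range, up to 2.10 in Ptch+/- MB replicate 1, and all 4 genes are below 0 in NdpKO;Ptch+/- MB replicate 2 and in Ptch+/- MB replicates 2 and 3.

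Ptch+/- MB replicates 1 and 4, the tumors of their genotype with the highest SLRP signals, were also those with the most choroid plexus transcripts. Ttr, the transthyretin gene that marks choroid plexus, read 11.19, 4.14, 5.33 and 4.13 in NdpKO;Ptch+/- MBs, against 14.79, 12.51, 4.14 and 14.22 in Ptch+/- MBs and 11.88, 10.02, 10.34 and 8.71 in WT GNPs. The summed linear signal of the 8 choroid plexus markers measured, 7 of which reached 4.5, was 1913 to 5925 in NdpKO;Ptch+/- MBs, 1506 to 32360 in Ptch+/- MBs and 3371 to 6781 in WT GNPs, and 0 of the 8 passed between the tumor genotypes. Among NdpKO;Ptch+/- MBs the order differed, since replicate 4, with the highest Dcn and Lum, had Ttr at 4.13. Foxd1, a transcription factor gene of meningeal and stromal cells, stood at 8.27 and 9.40 in Ptch+/- MB replicates 1 and 4 and was under 4.5 on the other 10 arrays. The part of these transcripts in the SLRP signals was not tested.

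The defining collagen genes of fibroblasts were not well above background in the tumors. Col1a1, Col1a2 and Col3a1, the chains of the main fibrillar collagens, were under 4.5 in all 8 tumors, although Dcn and Bgn were well above that limit there. Col1a1 and Col1a2 averaged only 4.38 and 4.60 in WT GNPs, and a signal under 4.5 does not show that a transcript was absent. Of the 17 fibroblast and meningeal markers, 12 reached 4.5 on any array, 0 passed between the tumor genotypes, and 2, Slc6a13 and Aldh1a2, the second of them averaging under 4.5 in both genotypes, were lower in NdpKO;Ptch+/- MBs at an unadjusted p under 0.05 (against 7.91% of all genes and 12.7% of those that reached 4.5). Their summed linear signal was 4197 to 6414 in NdpKO;Ptch+/- MBs, 5769 to 7263 in Ptch+/- MBs and 3772 to 4035 in WT GNPs, with Pdgfra, which oligodendrocyte precursors also express, between 11.30 and 12.59 on every array. Slc6a13, a transporter gene of leptomeningeal fibroblasts, read 4.13 to 4.25 in NdpKO;Ptch+/- MBs, against 6.21, 4.32, 4.24 and 6.02 in Ptch+/- MBs and 9.01, 8.45, 9.04 and 8.72 in WT GNPs. Slc6a13 was thus above the limit in the same 2 Ptch+/- MBs as Foxd1 and in every WT GNP sample.

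Set against WT GNPs, the fibroblast and meningeal markers moved both ways. In NdpKO;Ptch+/- MBs 2 of the 17 were higher, Pdgfra and Mgp, and 5 were lower, Col3a1, Slc6a13, Slc22a6, Slc22a8 and Foxc1, against 15.7% of all genes in either direction. In Ptch+/- MBs 3 were higher, Pdgfra, Mgp and Aldh1a2, and the same 5 were lower, against 21.2%, with Aldh1a2, Slc22a8 and Foxc1 averaging under 4.5 in all 3 groups. Mgp, which encodes matrix Gla protein, an inhibitor of calcification, averaged 9.23 ± 0.78 in NdpKO;Ptch+/- MBs, 8.92 ± 0.73 in Ptch+/- MBs and 6.11 ± 0.66 in WT GNPs (SD, n = 4 each). It rose by 3.12 in NdpKO;Ptch+/- MBs (adjusted p = 0.00285) and by 2.81 in Ptch+/- MBs (adjusted p = 0.0038) relative to WT GNPs, whereas Dcn fell in NdpKO;Ptch+/- MBs.

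Markers of the other cells that a dissected tumor can hold moved with the tumor genotype in places. The summed signal of 12 mural cell markers was 1655 to 3269 in NdpKO;Ptch+/- MBs, against 768 to 1756 in Ptch+/- MBs and 1547 to 1967 in WT GNPs. Of the 12, 1 was higher in NdpKO;Ptch+/- MBs than in Ptch+/- MBs, Vtn, which encodes vitronectin (0.90, adjusted p = 0.0427), against 2.07% of all genes in either direction. The sum of 10 endothelial markers was 2594 to 4045 in NdpKO;Ptch+/- MBs, 2402 to 3395 in Ptch+/- MBs and 4177 to 5848 in WT GNPs. Of these 10, 1 was higher and 1 lower in NdpKO;Ptch+/- MBs than in Ptch+/- MBs, against 2.07% of all genes in either direction. Emcn, the endomucin gene, averaged 9.07 ± 0.39 in NdpKO;Ptch+/- MBs and 7.12 ± 0.78 in Ptch+/- MBs (SD, n = 4 each), a difference of 1.95 (SE 0.35, adjusted p = 0.0321). Vwf, the von Willebrand factor gene, averaged 7.81 ± 0.31 in NdpKO;Ptch+/- MBs and 8.80 ± 0.14 in Ptch+/- MBs (SD, n = 4 each), a difference of -1.00 (SE 0.16, adjusted p = 0.0212). The sum of 10 microglia and macrophage markers was 2960 to 4169 in NdpKO;Ptch+/- MBs and 3223 to 7194 in Ptch+/- MBs, against 536 to 729 in WT GNPs. The sum of 7 oligodendrocyte markers was 9235 to 13418 in NdpKO;Ptch+/- MBs, 7119 to 13475 in Ptch+/- MBs and 9841 to 20025 in WT GNPs, and 0 passed between the tumor genotypes. Relative to WT GNPs, Mbp, Mog, Mag and Cnp were lower and Olig1 was higher in each tumor genotype. Of all genes, 15.7% passed in NdpKO;Ptch+/- MBs and 21.2% in Ptch+/- MBs against WT GNPs, in either direction. The sum of 3 red blood cell markers was 1193 to 6650 in NdpKO;Ptch+/- MBs, 106 to 1617 in Ptch+/- MBs and 2130 to 7734 in WT GNPs, with 0 passing between the tumor genotypes and the hemoglobin gene Hba-a1 lower in Ptch+/- MBs than in WT GNPs. The part of these cells in the matrix signals was not tested.

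Islr, a secreted leucine-rich repeat gene of mesenchymal stromal cells that is related to the SLRPs by its repeats, was highest in WT GNPs. It read 6.61, 6.06, 4.91 and 5.60 in NdpKO;Ptch+/- MBs, against 6.02, 4.27, 4.22 and 7.74 in Ptch+/- MBs and 8.13, 8.23, 7.76 and 7.55 in WT GNPs. Every NdpKO;Ptch+/- MB lay below every WT GNP sample, and Ptch+/- MBs did so apart from replicate 4. NdpKO;Ptch+/- MBs averaged 5.79 ± 0.72, Ptch+/- MBs 5.56 ± 1.68 and WT GNPs 7.92 ± 0.32 (SD, n = 4 each). The difference from WT GNPs was -2.13 in NdpKO;Ptch+/- MBs (95% confidence interval -3.77 to -0.48, adjusted p = 0.0975) and -2.36 in Ptch+/- MBs (95% confidence interval -4.00 to -0.71, adjusted p = 0.0546), and neither passed. Without Ptch+/- MB replicate 4 Ptch+/- MBs differed from WT GNPs by -3.08 with an adjusted p of 0.0045, whereas without any other single array of these groups the adjusted p stayed above 0.05 (-1.92 and an adjusted p of 0.131 without Ptch+/- MB replicate 2, -1.91 and 0.132 without replicate 3). The tumor genotypes differed by 0.23 (95% confidence interval -1.41 to 1.87, adjusted p = 0.953), an interval that spans more than a doubling either way. The second Islr probe was under 4.5 on every array.

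Fn1, which encodes fibronectin, the matrix glycoprotein that integrins bind, did not separate the groups. Its signal was 7.19, 7.24, 7.73 and 6.01 in NdpKO;Ptch+/- MBs, against 8.05, 7.54, 7.73 and 7.23 in Ptch+/- MBs and 7.77, 7.14, 7.01 and 6.49 in WT GNPs. NdpKO;Ptch+/- MBs averaged 7.04 ± 0.73, Ptch+/- MBs 7.64 ± 0.35 and WT GNPs 7.10 ± 0.53 (SD, n = 4 each). The tumor genotypes differed by -0.59 (95% confidence interval -1.45 to 0.26, adjusted p = 0.591), NdpKO;Ptch+/- MBs and WT GNPs by -0.06 (95% confidence interval -0.92 to 0.79, adjusted p = 0.948) and Ptch+/- MBs and WT GNPs by 0.53 (95% confidence interval -0.32 to 1.39, adjusted p = 0.415). The other 3 Fn1 probes were under 4.5 on every array.

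Thbs2, which encodes thrombospondin 2, an inhibitor of angiogenesis, had its highest signals in Ptch+/- MBs. Its probe read 4.33, 4.30, 4.34 and 4.17 in NdpKO;Ptch+/- MBs, against 4.39, 5.27, 6.54 and 7.85 in Ptch+/- MBs and 4.59, 4.27, 4.28 and 4.34 in WT GNPs. Above the limit of 4.5 lay 3 Ptch+/- MBs and WT GNP replicate 1. The tumor genotypes did not overlap, but their nearest values, 4.39 in Ptch+/- MB replicate 1 and 4.34 in NdpKO;Ptch+/- MB replicate 3, were both under 4.5. Thbs2 was at least 2.85-fold lower in NdpKO;Ptch+/- MBs, whose mean was 4.28, than in Ptch+/- MBs, whose mean was 6.01 ± 1.51 (SD, n = 4), and this did not pass (unadjusted p = 0.017, adjusted p = 0.238). Without Ptch+/- MB replicate 4 it was at least 1.87-fold lower (adjusted p = 0.259). Relative to WT GNPs the fitted difference in Ptch+/- MBs was 1.64 (adjusted p = 0.0950), and without Ptch+/- MB replicate 1 it was 2.18 with an adjusted p of 0.0169, while it was 1.03 without replicate 4 (adjusted p = 0.127) and 1.47 without replicate 3 (adjusted p = 0.203). The WT GNP mean of 4.37 was under 4.5. The tumors with the highest Thbs2, replicates 4 and 3, were not those with the highest Dcn, replicates 1 and 4. Thbs1, which encodes thrombospondin 1, and Postn, which encodes periostin, a matrix protein of activated fibroblasts, were under 4.5 with every probe on all 12 arrays.

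Among 11 further SLRP genes measured, 0 passed in any of the 3 comparisons by limma. Prelp read 6.84, 4.44, 6.87 and 7.60 in NdpKO;Ptch+/- MBs, against 8.47, 6.26, 7.39 and 7.81 in Ptch+/- MBs and 7.89, 8.06, 7.07 and 7.12 in WT GNPs, and the tumor genotypes overlapped (difference -1.04, adjusted p = 0.602). The other 9 genes apart from Nyx, which was between 4.13 and 4.67, were under 4.5 on every array, Aspn, Omd and Kera among them.

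The collagen and collagen processing genes, partners of decorin and lumican in the fibril, held 1 gene that passed between the tumor genotypes. Col6a1, a chain of the microfibrillar collagen that decorin and biglycan bind, read 6.11, 4.36, 6.21 and 5.99 in NdpKO;Ptch+/- MBs, against 8.34, 8.03, 8.42 and 9.47 in Ptch+/- MBs and 8.18, 7.77, 7.94 and 7.53 in WT GNPs. As for Dcn, NdpKO;Ptch+/- MBs lay below every sample of both other groups. Col6a1 fell by 2.90 relative to Ptch+/- MBs (SE 0.44, adjusted p = 0.0159) and by 2.19 relative to WT GNPs (adjusted p = 0.00979). Col6a2, the partner chain, was under 4.5 on every array. Of the 13 genes of this list measured, 0 were higher and 1 was lower in NdpKO;Ptch+/- MBs than in Ptch+/- MBs, against 2.07% of all genes in either direction, and 0 were higher and 2 lower in each tumor genotype than in WT GNPs, against 15.7% of all genes in NdpKO;Ptch+/- MBs and 21.2% in Ptch+/- MBs. Col3a1 read 5.04, 4.68, 6.13 and 6.47 in WT GNPs, with every tumor under 4.5, and was at least 2.12-fold lower in both tumor genotypes (adjusted p = 0.0247 in NdpKO;Ptch+/- MBs and 0.0213 in Ptch+/- MBs). Serpinh1, the collagen chaperone gene, fell by 0.84 in Ptch+/- MBs relative to WT GNPs (adjusted p = 0.0113).

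Of 13 further matricellular genes, 0 passed between the tumor genotypes. Tgfbi, a TGF-beta induced gene whose product resembles periostin, read 6.95, 6.41, 7.83 and 8.17 in NdpKO;Ptch+/- MBs, against 10.20, 9.56, 9.48 and 9.88 in Ptch+/- MBs and 4.84, 4.30, 6.67 and 6.25 in WT GNPs. The tumor genotypes did not overlap, yet the difference of -2.44 (SE 0.56) had an adjusted p of 0.0788, while relative to WT GNPs Tgfbi rose by 4.26 in Ptch+/- MBs (adjusted p = 0.000723). In NdpKO;Ptch+/- MBs 1 gene of the list was higher than in WT GNPs, Smoc1, and 3 were lower, Tnc, Tnxb and Ccn1. In Ptch+/- MBs 2 were higher, Tgfbi and Smoc1, and 2 were lower, Tnc and Ccn1, so 4 of 13 passed in each, against 15.7% of all genes in NdpKO;Ptch+/- MBs and 21.2% in Ptch+/- MBs. Tnc, which encodes the matrix protein tenascin C, fell by 2.70 in NdpKO;Ptch+/- MBs (adjusted p = 0.0093) and fell by 2.43 in Ptch+/- MBs (adjusted p = 0.0121). Ccn1, a target gene of YAP signalling, was at least 5.13-fold lower in both tumor genotypes than in WT GNPs, and Smoc1, which encodes a calcium-binding protein of the SPARC family, rose by 2.90 in NdpKO;Ptch+/- MBs (adjusted p = 0.000377) and by 2.98 in Ptch+/- MBs (adjusted p = 0.000223).

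Among 11 receptor genes for fibronectin, thrombospondins and periostin, 1 passed between the tumor genotypes, against 2.07% of all genes and 3.96% of those that reached 4.5. Sdc4, which encodes syndecan 4, a co-receptor for fibronectin, read 6.47, 5.76, 5.91 and 6.38 in NdpKO;Ptch+/- MBs, against 7.23, 7.91, 8.67 and 8.52 in Ptch+/- MBs and 6.04, 6.19, 6.49 and 6.38 in WT GNPs. Ptch+/- MBs lay above every sample of both other groups, with a difference of -1.95 between NdpKO;Ptch+/- MBs and Ptch+/- MBs (SE 0.30, adjusted p = 0.0174). Relative to WT GNPs Sdc4 rose by 1.81 in Ptch+/- MBs (adjusted p = 0.00296), and in NdpKO;Ptch+/- MBs the difference was -0.14 (adjusted p = 0.83). Itgb5, an integrin chain for vitronectin and periostin, rose by 1.99 in NdpKO;Ptch+/- MBs (adjusted p = 0.00985) and by 2.55 in Ptch+/- MBs (adjusted p = 0.00194). Relative to WT GNPs, 1 gene of the 11 was higher and 0 were lower in NdpKO;Ptch+/- MBs, and 3 were higher and 0 lower in Ptch+/- MBs, of which Itga4 was under 4.5 on every array. Of all genes 15.7% passed in NdpKO;Ptch+/- MBs and 21.2% in Ptch+/- MBs.

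**Figure D4:**
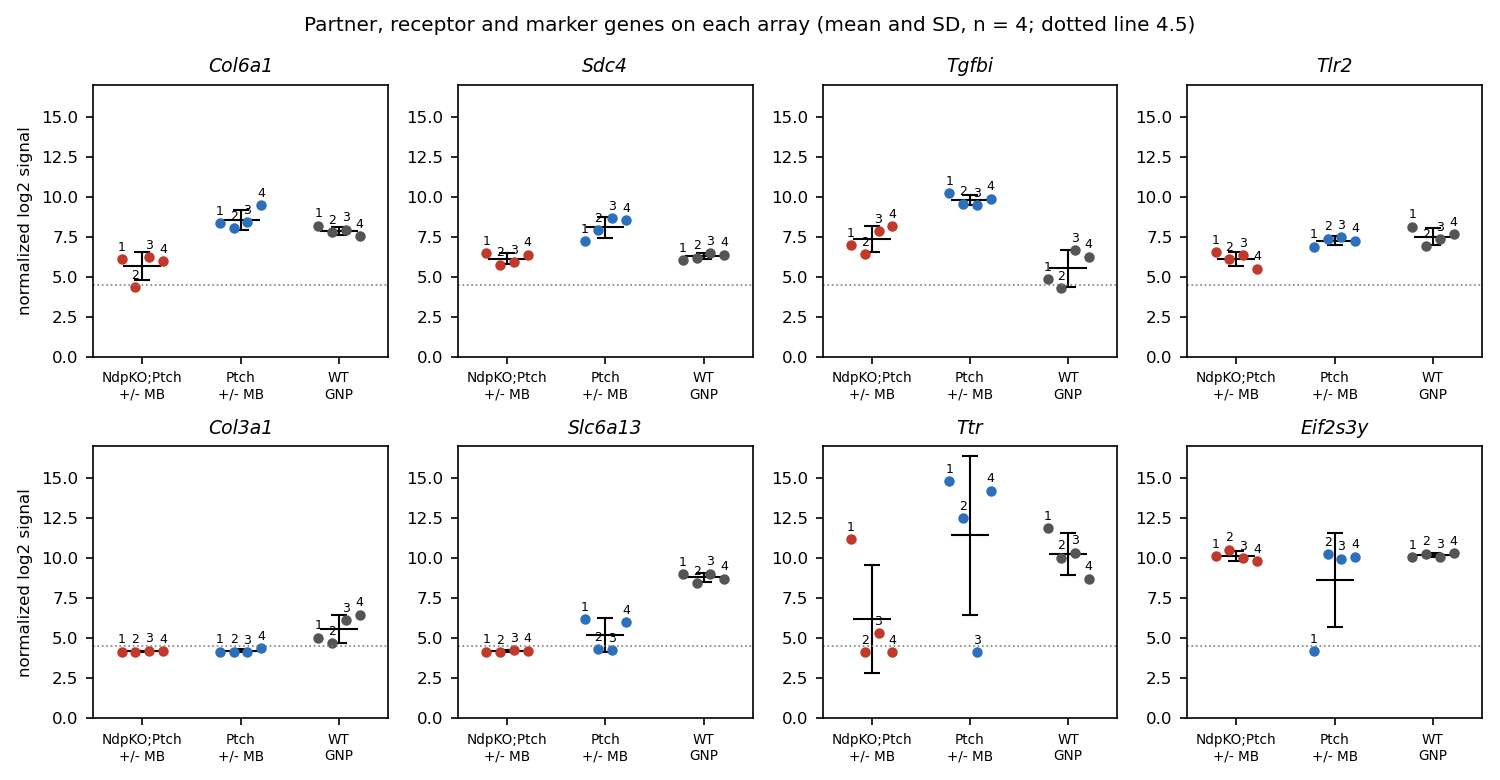
Normalized log2 signal (y axis) of 8 genes on each array, as numbered points for the replicates of NdpKO;Ptch+/- MB, Ptch+/- MB and WT GNP, with the group mean and SD and the limit of 4.5 as a dotted line. Col6a1 is lowest in NdpKO;Ptch+/- MBs, Sdc4 and Tgfbi are highest in Ptch+/- MBs, Col3a1 is under 4.5 in every tumor, and Ttr runs from 4.14 to 14.79 among Ptch+/- MBs.

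The genes that make SLRP side chains did not pass between the tumor genotypes (0 of 12). Relative to WT GNPs, Chst3, a chondroitin sulfotransferase gene, was at least 2.49-fold lower in both tumor genotypes (adjusted p = 0.000353 in NdpKO;Ptch+/- MBs and 0.000232 in Ptch+/- MBs). Xylt2, whose product starts the side chain with xylose, rose by 1.45 in Ptch+/- MBs (adjusted p = 0.00179), and in NdpKO;Ptch+/- MBs the difference was 0.71 (adjusted p = 0.0690). In all, 1 of the 12 was higher and 1 lower in NdpKO;Ptch+/- MBs, against 15.7% of all genes in either direction, and 2 were higher and 1 lower in Ptch+/- MBs, against 21.2%. Chsy1, the gene counted as higher in NdpKO;Ptch+/- MBs and 1 of the 2 in Ptch+/- MBs, was under 4.5 on every array.

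Genes of signalling pathways that decorin and biglycan bind gave 0 calls between the tumor genotypes, neither among 13 genes of the TGF-beta axis nor among 8 receptor genes. Tlr2, a Toll-like receptor that biglycan engages, read 6.52, 6.09, 6.35 and 5.51 in NdpKO;Ptch+/- MBs, against 6.88, 7.38, 7.49 and 7.26 in Ptch+/- MBs and 8.12, 6.90, 7.35 and 7.65 in WT GNPs. NdpKO;Ptch+/- MBs lay below every sample of both other groups, with a difference of -1.13 from Ptch+/- MBs that did not pass (adjusted p = 0.109) and a fall of 1.38 relative to WT GNPs that did (adjusted p = 0.0117). Egfr, a receptor that decorin binds, rose by 1.40 in NdpKO;Ptch+/- MBs (adjusted p = 0.0114) and by 1.16 in Ptch+/- MBs (adjusted p = 0.0210). Smad3, a mediator of TGF-beta signalling, rose by 1.63 in NdpKO;Ptch+/- MBs (adjusted p = 0.00138) and by 2.28 in Ptch+/- MBs (adjusted p = 0.000138). Of the TGF-beta axis, 3 genes were higher and 0 lower than in WT GNPs in NdpKO;Ptch+/- MBs, and 5 were higher and 1 lower in Ptch+/- MBs. Among these calls, Tgfb3 in NdpKO;Ptch+/- MBs and Tgfb1 in Ptch+/- MBs had means under 4.5 in both groups compared. Of the receptors, 2 were higher and 2 lower in NdpKO;Ptch+/- MBs, and 4 were higher and 1 lower in Ptch+/- MBs, Tlr4 among the 4 with means under 4.5 in both groups. Of all genes, 15.7% passed in NdpKO;Ptch+/- MBs and 21.2% in Ptch+/- MBs, and of those that reached 4.5, 27.5% and 36.6%.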

How the data were processed

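RNA from 12 samples was hybridised to Illumina MouseWG-6 v2.0 BeadChips. The authors ran BeadStudio exports through limma's neqc, which corrects background from the negative controls, adds an offset and quantile normalizes, and deposited the resulting log2 signals, so differences in general level between arrays cannot be seen. The authors annotated probes with illuminaMousev2.db; here, probes were named from the platform annotation, which gives 1 symbol to 34885 of 45281 probes, several to 18 and none to 10378. Of the genes in the lists, 14 were not matched to a probe and are not analysed here.

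Groups were compared in R 4.3.3 with limma 3.58.1 (lmFit and eBayes, 2-sided) with a mean for each group, fitted to all 12 arrays with no covariate. Benjamini-Hochberg adjustment covered every probe, and a gene passed at an adjusted p under 0.05. A gene was read from its brightest probe on average. Signals under 4.5 were taken as not well above background, a limit chosen after the values were seen. Where a group lay under it on all its arrays, the fold is "at least" the mean of the brighter group over 4.5, and differences are given only where a group mean reaches 4.5. The limma steps were tested on simulated data.

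The genes and lists were chosen with earlier results of these data known. Named in the text are all 10 genes and, of each list, up to 4 genes with the smallest p between the tumor genotypes and up to 2 in each comparison with WT GNPs, besides markers of other cells. Lists are described by counts, with no test of the list. Alternatives were other prior variances, array weights, scalings, filters on dim probes, groups in the fit, probe summaries, thresholds, the replicate number as a block, and leaving out arrays.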

Additional observations from a re-analysis of the deposited data

How the results depend on the processing

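Over the other fits, the number of the 10 genes passing between NdpKO;Ptch+/- MBs and Ptch+/- MBs (0 as reported) was 1 with an intensity trend and robust prior, 1 without probes under 4.5 on all arrays and 1 without probes not above the median of probe means, Dcn each time, and 0 to 1 with 1 array left out. With only the arrays of these 2 groups 64 probes passed in all, against 624 in the main fit. Dcn then had an adjusted p of 0.244, and the number of the 10 genes passing was 0. Between Ptch+/- MBs and WT GNPs (0 as reported) it was 1 with array weights and with a second quantile normalization, 2 with the trend, without probes not above the median, with the mean of all probes of a gene and without Ptch+/- MB replicates 1 and 4, 3 without probes under 4.5, and 0 to 1 with 1 array left out. Between NdpKO;Ptch+/- MBs and WT GNPs (1 as reported) it was 2 with the trend, without probes not above the median and with only the arrays of the 2 groups, 3 without probes under 4.5, 0 at a threshold of 0.01, and 0 to 1 with 1 array left out. Leaving out Ptch+/- MB replicates 1 and 4 together was chosen after seeing the data, and it removes the highest Dcn, Lum and Bgn signals of that genotype. The cause of these moves was not tested. The filtered fits adjust over fewer probes and also estimate the prior variance anew, and these were not separated.

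Some small differences turned sign. Islr between the tumor genotypes was -0.04 without NdpKO;Ptch+/- MB replicate 1, -0.20 without Ptch+/- MB replicate 2 and -0.22 without Ptch+/- MB replicate 3, and up to 0.96 with other arrays left out. Dcn in Ptch+/- MBs against WT GNPs was -0.11 with the mean of all probes, -0.04 without Ptch+/- MB replicate 1 (up to 0.47 with others left out) and -0.24 without replicates 1 and 4. Lum there was 0.33 with the mean of all probes, 0.32 without Ptch+/- MB replicate 2 and 0.29 without replicate 3 (down to -0.79 with others left out). Fn1 in NdpKO;Ptch+/- MBs against WT GNPs was 0.00 with array weights, 0.28 without NdpKO;Ptch+/- MB replicate 4 and 0.16 without WT GNP replicate 1 (down to -0.29 with others left out). Bgn between the tumor genotypes was 0.11 without Ptch+/- MB replicates 1 and 4. The cause was not tested. Of the values of single genes under an alternative, 306 kept direction and side of the threshold, 28 newly passed and 8 no longer passed.

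The replicate numbers were shared by the groups, but same-numbered samples did not deviate together (correlations of -0.178 to 0.107). With the replicate number as a block, Dcn between the tumor genotypes had an adjusted p of 0.0756, the numbers of the 10 genes passing were 0 between the tumor genotypes, 0 in Ptch+/- MBs and 1, Dcn, in NdpKO;Ptch+/- MBs against WT GNPs, and no call among the 10 genes changed. Signals near 4.15 limit what can be said of Fmod, Postn and Thbs1: their transcripts were not detectable on these arrays, which does not show that they were absent.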

Other observations

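Across the 8 tumors, with each gene measured from the mean of its genotype, the genes most like the mean deviation of Dcn, Bgn and Lum among 7650 genes at 4.5 or more in all tumors were Rtl8b (Pearson r = 0.966), Tspoap1 (0.956), Senp1 (0.955), Odf2 (0.949), Cbx6 (0.942), Vps37b (0.929), Sult4a1 (0.926) and Dab2ip (0.925). These are descriptions over 8 tumors that share a normalization, picked as the highest of many.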
